A study of Mus musculus with 24 samples.

Results

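The genes described here are the mouse chaperone and heat shock genes, 56 of the 8251 genes that the array annotation names by a single symbol. They were chosen by name: symbols that begin with Hsp or Dnaj, the symbols Cct2 to Cct8 with their variants, and Tcp1. Hspg2, which shares the letters but encodes a matrix proteoglycan, was left out. Of these genes, 39 had 1 probe set and 17 had several, and each gene with several stands for the one with the highest mean signal over the 24 arrays. The choice used names and mean brightness, and the names were chosen with earlier results of these data known. Of the 24 arrays 22 are of tumour lines, so mean brightness leans towards probe sets that are bright in the lines. Hsp90ab1, the constitutive cytosolic HSP90 gene, has no row with a single symbol and is not analysed here.

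Chaperones bind proteins that are unfolded or newly made and help them reach their folded state. HSP70 proteins (the Hspa genes) hold short unfolded stretches, J-domain proteins (the Dnaj genes) bring them their substrates and speed their ATP hydrolysis, and HSP90 proteins finish the folding of kinases and receptors. The chaperonin, a double ring built of the products of Tcp1 and the Cct genes, encloses actin, tubulin and other proteins while they fold. Mitochondria hold a chaperonin of their own, made of Hspd1 and its lid Hspe1, and the endoplasmic reticulum has its own HSP70 (Hspa5) and HSP90 (Hsp90b1) for secreted proteins. Stress raises subsets of these genes through the heat shock factor Hsf1 or through the unfolded protein response of the endoplasmic reticulum.

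The arrays measured RNA from 11 cell lines and from control cells. The lines came from lung tumours of mice that carried both a c-Myc and a c-Raf transgene and were 8 months old. They are A2B1 with 2 arrays, A2C12, B3, cRAF_cMYC, gammaA7 and gammaB8 with 3 arrays each, and betaD5, betaD10, gammaA3, gammaD1 and gammaD12 with 1 array each. They were passaged weekly in medium with 10% fetal calf serum for up to 50 passages. The control is 2 arrays of alveolar epithelial type II cells, the surfactant-making cells of the air sacs, from healthy animals without the transgenes. The sources used here do not give the promoters of the transgenes, the age and number of the control animals, or whether a line is 1 clone. One label calls the line gammaB8 by the name gammaA8. Control cells were taken from lungs by trypsin digestion and a density gradient, and no culture of them is described, so transformation, culture and the isolation itself cannot be told apart in any difference between lines and control. Nothing says that repeat arrays are separate cultures or that each control array is a separate animal. The p-values therefore describe the scatter of these samples, which may be technical.

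The control arrays were unlike each other. Their signals had a Spearman correlation of 0.87 over the 7670 tested probe sets, against 0.91 to 0.99 between arrays of one line. They lay at least 2-fold apart in 952 probe sets, among them 10 members: Cct8, Dnajb1, Dnajb13, Dnajb2, Hspa1b, Hspa2, Hspa9, Hspb11, Hspb2 and Hsph1. The 8 measured type II cell markers summed to 1589 on control 1, 31018 on control 2 and 96.1 to 215 on tumour arrays, so control 1 held far less than control 2 of the RNA that defines its label. The 16 myeloid markers summed to 54613 and 33435 on the controls and 612 to 2117 on tumour arrays. Median signals were 93.8 and 107.7 on the controls and 53.2 to 75.5 on tumour arrays, and the ratio of 3' to 5' actin signal was 1.47 and 1.64 against 1.03 to 1.32. The part of these differences in the results was not tested. Differences against each control array are given for some of the members whose values depend on the control array.

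The stretches before the gene starts were searched for elements through which stress is known to act. RefSeq promoters (GRCm38.p6, 250 bases before to 50 after the start) were found for 48 of the 56 genes. Heat shock factor binds inverted GAA repeats, searched here on both strands as TTCNNGAA, found in 8.52% of all 32851 promoters, and as GAANNTTC, found in 7.86%. Either form, and the forms may overlap, stood in 15.1% of all promoters, which is 17% of the 27025 genes with one or more promoters, in 14 of the 48 member genes and in 6 of the 8 inducible genes with a promoter. The endoplasmic reticulum stress element, CCAAT and CCACG with 9 bases between them, stood in 39 promoters, 0.119% of all and 0.137% of genes, and 3 of them belong to endoplasmic members: Hspa5, Hsp90b1 and Dnajc3. The letters CACGTG, an E-box that Myc among other factors can bind, stood in 7.15% of all promoters, 8.09% of genes and 5 of the 48 member genes: Dnajb9, Dnajc1, Dnajc8, Hspd1 and Hsph1. A match is a description of the letters and no proof of a site.

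The promoter stretches of 6 members are shown because these genes carry the contrasts below: 2 stress-inducible genes with much lower signal in the lines, a further inducible gene that was not called, a mitochondrial gene with higher signal, and the main endoplasmic HSP70 and HSP90. Capitals mark the matched heat shock and endoplasmic stress elements before the start. Matches after the start are not shown. Hsph1 has such heat shock elements at 36 to 43 and 41 to 48 bases from the start, and its E-box at 2 to 7.
Hspa1a: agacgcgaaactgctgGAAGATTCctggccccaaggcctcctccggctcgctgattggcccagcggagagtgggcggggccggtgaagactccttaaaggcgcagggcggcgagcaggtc
Hspa1b: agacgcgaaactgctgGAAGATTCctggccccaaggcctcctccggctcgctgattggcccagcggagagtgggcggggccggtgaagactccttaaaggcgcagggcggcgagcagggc
Hsph1: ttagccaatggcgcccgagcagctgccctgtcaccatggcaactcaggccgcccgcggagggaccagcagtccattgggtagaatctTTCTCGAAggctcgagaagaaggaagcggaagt
Hspe1: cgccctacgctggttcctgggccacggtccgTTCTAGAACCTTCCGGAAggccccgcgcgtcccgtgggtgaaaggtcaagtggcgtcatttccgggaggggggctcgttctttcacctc
Hspa5: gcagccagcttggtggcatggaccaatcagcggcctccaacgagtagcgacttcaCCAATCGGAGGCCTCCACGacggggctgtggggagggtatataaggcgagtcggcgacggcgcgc
Hsp90b1: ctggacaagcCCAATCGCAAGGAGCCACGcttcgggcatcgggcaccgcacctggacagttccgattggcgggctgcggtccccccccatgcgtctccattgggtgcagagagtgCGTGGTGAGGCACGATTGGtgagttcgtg

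The Hspa1a stretch lies at chr17:34972157-34972276 and that of its neighbour Hspa1b at chr17:34959239-34959358, both on the minus strand. Their 250 bases before the start are equal at 247 positions, 98.8%. The Hsph1 stretch is chr5:149636337-149636456 on the minus strand. The Hspe1 stretch is chr1:55088028-55088147 on the plus strand, and its run of capitals holds 3 overlapping heat shock elements between 89 and 72 bases before the start. Hspd1 starts from the opposite strand beside it, and the RefSeq promoter entries of the pair share 285 of 300 bases, so both entries hold these elements. The Hspa5 stretch is chr2:34771970-34772089 on the plus strand. The Hsp90b1 stretch is chr10:86705523-86705666 on the minus strand and holds the stress element in both orientations.

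Lines and control were compared to ask which chaperones differ between the cultured tumour cells and lung cells from healthy mice. In the chaperonin ring 6 of the 8 tested genes rose and none fell, where 16.5% of all tested probe sets rose and 21.4% fell. The stress-inducible HSP70 gene Hspa1b fell, while the constitutive HSP70 Hspa8 and the mitochondrial HSP70 Hspa9 rose. No endoplasmic member rose, and 1 of 7, Dnajb9, fell, a share of 14.3% that lies near the background. Signals were compared as log2(signal + 32), and a difference was called when limma's Benjamini-Hochberg adjusted p was under 0.05 and the difference at least 2-fold. The deposited signals share a common average per array, so a difference is relative to all other RNA in the sample. In such bulk RNA, fewer cells of a type and less RNA per cell cannot be told apart.

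Of the 56 genes, 50 were tested, meaning that 2 or more arrays gave a signal above their own median. The other 6, Cct6b, Hspb1, Dnajb5, Dnajb3, Dnajb8 and Hspa1l, were too dim. Hspa1a, alone among the tested members, passed this filter through the control arrays alone, so its tumour signals were bound to be lower and its values are given as a description. In the lines 10 members were higher and 6 lower, where 16.5% and 21.4% of all tested probe sets were called higher and lower. The members' share called higher, 20% of 50, lies near that background. Without Hspa1a 5 of 49 members were lower (10.2%), where 16.7% were lower among the 7215 probe sets that did not pass through the controls alone. The median log2 difference was 0.41 over the tested members and -0.048 over all tested probe sets. Centring each array on its median moved the median of all probe sets to 0.49 and the members' split to 25 higher and 4 lower, where 2421 and 923 of the 7670 tested probe sets then were (31.6% of them higher). Quantile normalization moved the median of all probe sets to 0.18 and gave 10 higher and 5 lower, where 21.8% and 17.9% were. By adjusted p alone 21 members were higher and 9 lower, where 30.0% and 34.5% of all tested probe sets were. All 11 lines lay above both controls for 16 members and below both for 8, where 25.4% and 29.7% of all tested probe sets did so.

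**Figure D1:**
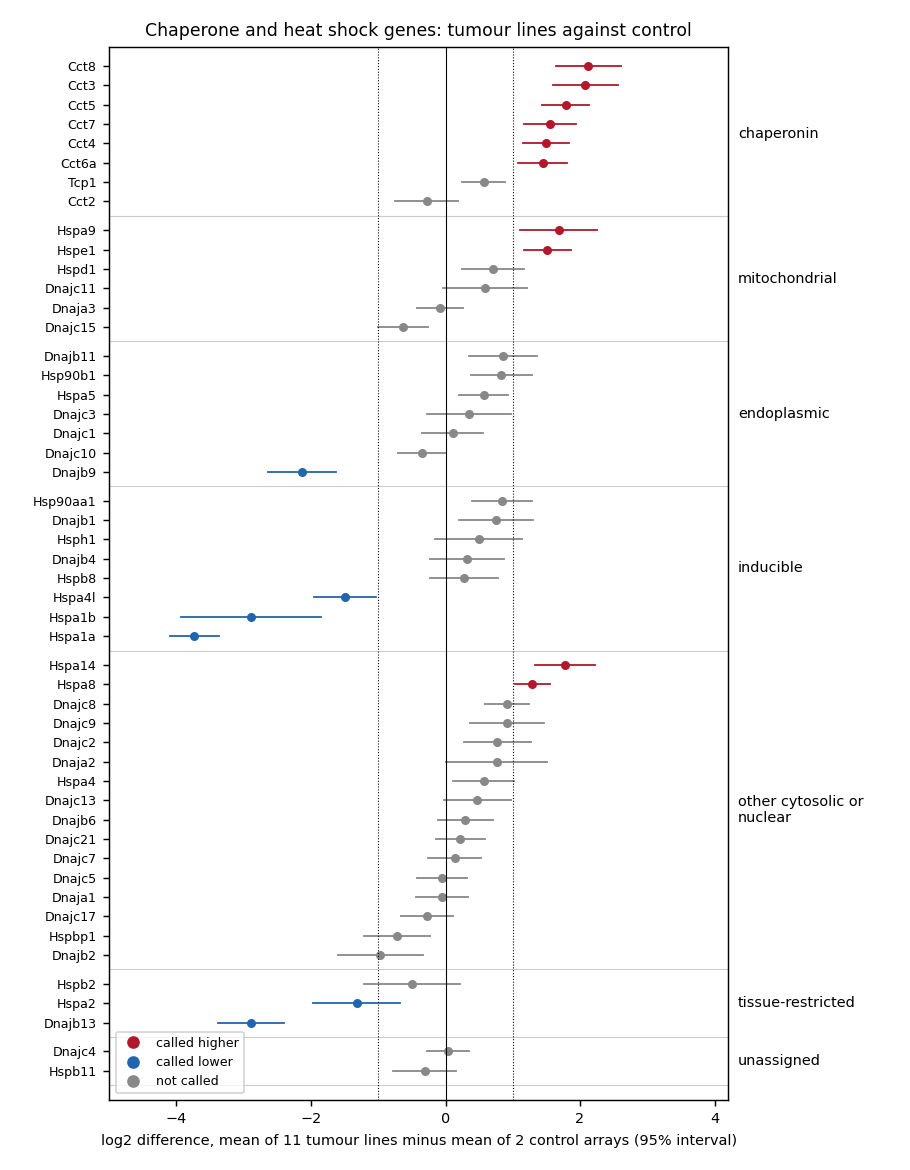
Each point is the log2 difference of a tested member between the mean of 11 tumour lines and the mean of 2 control arrays, with its 95% interval, grouped by class; dotted lines mark 2-fold. The 6 called chaperonin genes lie between 1.44 and 2.12, and Hspa1a and Hspa1b lie at -3.73 and -2.89.

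The 6 called chaperonin genes rose by 1.44 to 2.12 on the log2 scale. The median over the 8 tested subunits was 1.52. For Cct8 the control signals were 637 and 271, and the line means ran from 1648 in gammaD12 through a median of 1943 to 2452 in betaD5. Every line lay above both controls, with a log2 difference of 2.12 (SE 0.23, limma adjusted p = 1.17e-06). The Cct8 difference was 2.70 against control 2 alone and 1.55 against control 1 alone. For Cct3 the controls gave 869 and 713 and the lines 2217 in A2B1 to 4549 in cRAF_cMYC, with a median of 3603. The groups did not overlap, and the log2 difference was 2.08 (SE 0.22, limma adjusted p = 1.29e-06).

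The other called subunits had nearly the same pattern. Cct5 gave 1959 and 1463 on the controls and 4793 to 7233 in the lines (median 6029; log2 difference 1.78, SE 0.16). Cct7 gave 1676 and 1373 on the controls and 3560 to 5555 in the lines (median 4895; 1.55, SE 0.18). No line came near a control array in either gene. Cct4 (2.82-fold, SE 0.16 on the log2 scale) and Cct6a (2.72-fold, SE 0.17) rose as well, again with all 11 lines above both controls. Cct6b, a testis form of the zeta subunit, was not tested and gave signals of 49.1 and 53.9 on the controls and 14.3 to 48.5 in the lines.

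The remaining subunits of the ring did not follow at that size. Tcp1, the alpha subunit, gave 263 and 197 on the controls and 296 to 402 in the lines (median 365). All 11 lines lay above both controls, but the log2 difference of 0.57 (SE 0.15, limma adjusted p = 0.00375) was under 2-fold. The Tcp1 difference was 0.75 against control 2 alone and 0.39 against control 1 alone. Cct2, the beta subunit, gave 342 and 169 on the controls and 149 to 274 in the lines. No line lay above both controls and 3 lay below both. Its log2 difference was -0.28 (95% interval -0.74 to 0.19). It was -0.73 against control 1 alone, 0.17 against control 2 alone and 0.26 after centring arrays on their medians. Signals of different subunits come from different probe sets and cannot be set against each other.

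Where a subunit had other probe sets, they did not always match. A dimmer probe set of Cct3 rose by 1.77 (SE 0.25) but the dimmest, with 547 and 317 on the controls and a mean of 184 in the lines, fell by 1.09 (SE 0.22). The mean of the Cct3 probe sets gave 0.92, under the 2-fold limit. The second probe set of Cct5 rose by 2.32 (SE 0.30).

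**Figure D2:**
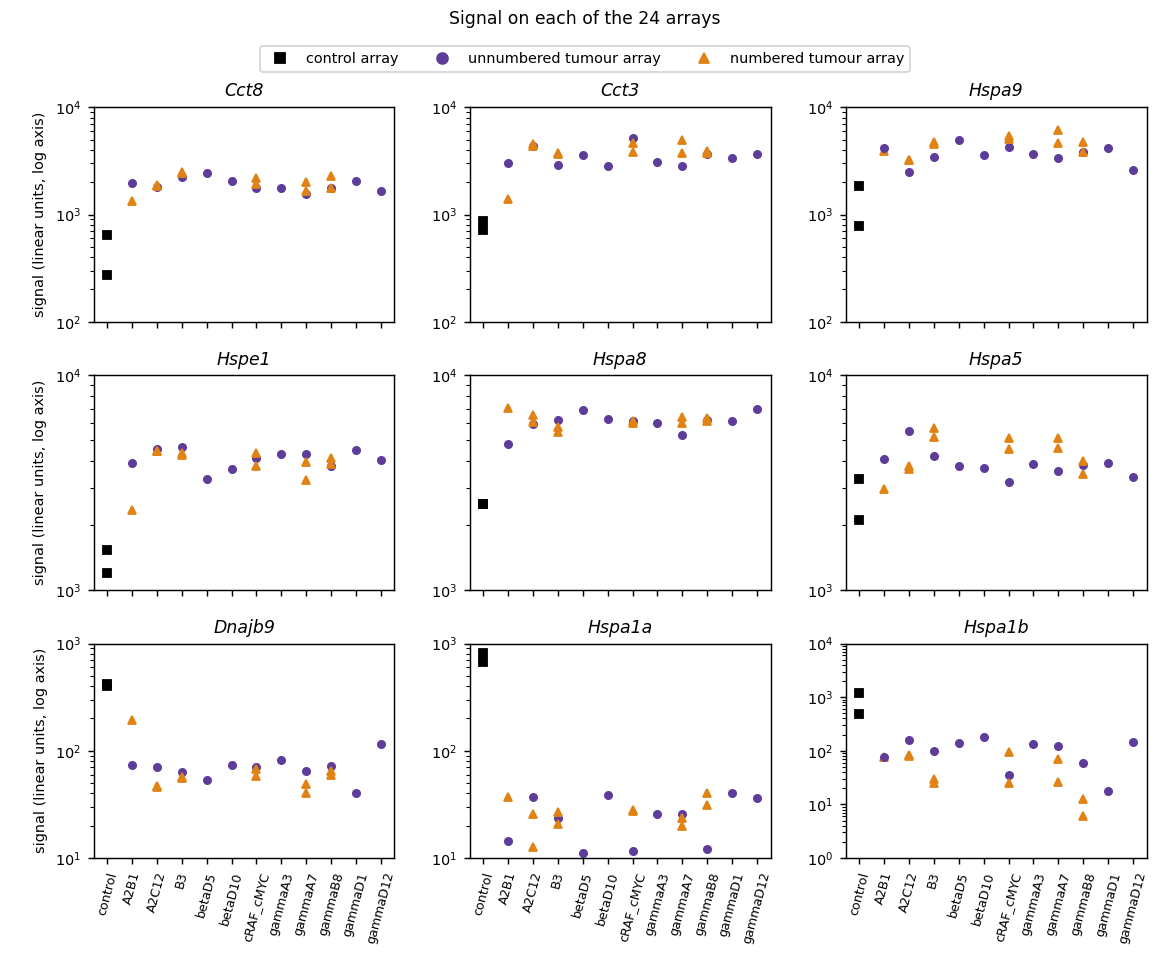
Signal (log axis) of 9 members on each of the 24 arrays; squares are control arrays, circles tumour arrays without a replicate number in their title and triangles those with one. For Cct8, Cct3, Hspe1 and Hspa8 every tumour array lies above both controls, and for Dnajb9, Hspa1a and Hspa1b every tumour array lies below both.

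Among the 6 mitochondrial members the HSP70 and the lid of the chaperonin rose (33.3%, beside 16.5% of all tested probe sets). None was called lower, beside 21.4% of all tested probe sets, and 4 were not called. The median over the class was 0.65. Hspa9, which pulls imported proteins into the matrix, gave 1842 and 778 on the controls and 2603 in gammaD12 to 4993 in betaD5 (median 4139). The lines lay above both controls, with a log2 difference of 1.68 (SE 0.27, limma adjusted p = 5.71e-05). It was 2.29 against control 2 alone and 1.08 against control 1 alone. Hspe1 gave 1529 and 1195 on the controls and 3121 in A2B1 to 4502 in gammaD1 (median 4032), a log2 difference of 1.51 (SE 0.17, limma adjusted p = 1.45e-06) with no overlap.

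Hspd1, the barrel that Hspe1 closes and its neighbour in the genome, gave 3880 and 2890 on the controls and 3665 in A2B1 to 7421 in A2C12 (median 5461). Of the 11 lines, 10 lay above both controls, and the log2 difference of 0.71 (SE 0.22, limma adjusted p = 0.00923) was under 2-fold. The Hspd1 difference was 0.92 against control 2 alone and 0.50 against control 1 alone. A dim second probe set gave -0.57. Dnajc11, a protein of the cristae, gave 0.59 (adjusted p = 0.0894), and Dnaja3, the J-domain partner of Hspa9, gave -0.082 (adjusted p = 0.674). Dnajc15, a J-domain protein of the import motor, lay below both controls in all 11 lines, at 140 to 244 against 311 and 290, with a log2 difference of -0.64 (SE 0.18, limma adjusted p = 0.00492) that was under 2-fold.

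The 7 endoplasmic members, of which Dnajb9 alone was called, had a median of 0.35. Dnajb9, a J-domain partner that hands Hspa5 to misfolded proteins and to the stress sensor, gave 401 and 417 on the controls and 40.7 in gammaD1 to 133.9 in A2B1 (median 65.4). Every line lay well below the controls, which were alike for this gene, and the log2 difference was -2.14 (SE 0.24, limma adjusted p = 1.73e-06). It was -2.59 with an offset of 1 and -1.59 with an offset of 100 in place of 32. The second Dnajb9 probe set fell by 1.30 (SE 0.18).

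The main endoplasmic chaperones were near or moderately above the controls. Hspa5 gave 3290 and 2128 on the controls and 3352 in gammaD12 to 5015 in B3 (median 3851). All lines lay above both controls, the lowest only just, and the log2 difference was 0.57 (SE 0.17, limma adjusted p = 0.00879), 0.88 against control 2 and 0.26 against control 1. Hsp90b1 gave 2724 and 2398 on the controls and 3439 in gammaA3 to 6413 in A2C12 (median 4304), also with no overlap, at a log2 difference of 0.83 (SE 0.21, limma adjusted p = 0.00278). Quantile normalization lowered these differences to 0.16 for Hspa5 and 0.47 for Hsp90b1.

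The J-domain partners of Hspa5 differed among themselves. Dnajb11, which helps fold secreted proteins, gave 0.85 (SE 0.24, limma adjusted p = 0.00539), with 10 lines above both controls, and 1.30 and 0.41 against control 2 and control 1 alone. Dnajc3, an inhibitor of the stress kinase Eif2ak3, gave 0.35 (adjusted p = 0.306), Dnajc1 0.11 and the reductase Dnajc10 -0.35. Another Dnajc3 probe set, at 506 and 638 on the controls and a mean of 227 in the lines, fell by 1.25 (SE 0.22), so the direction for Dnajc3 depends on the probe set. The 3 members whose promoters hold the endoplasmic stress element, Hspa5, Hsp90b1 and Dnajc3, were not called. Dnajb9, which has no such match in this window, was.

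Of the 8 tested inducible members none rose and 3 were called lower, Hspa1a among them, where 21.4% of all tested probe sets were lower. Of the 7 others 2 fell (28.6%). Among the 7215 probe sets that did not pass through the controls alone 16.7% fell. Hspa1a, one of a pair of genes for the main stress-induced HSP70, gave 679 and 814 on the controls and 11.2 in betaD5 to 40.3 in gammaD1 (median 25.9). No tumour array came near the controls. The log2 difference of Hspa1a was -3.73, but it rests on signals near or under the offset of 32 and was -4.83 with an offset of 1 and -2.73 with 100; no p is given, since the filter fixed its direction. Hspa1b gave 488 and 1211 on the controls and 17.9 in gammaD1 to 179.7 in betaD10 (median 76.9), a log2 difference of -2.89 (SE 0.49, limma adjusted p = 9.57e-05), -3.52 against control 2 and -2.26 against control 1. Offsets of 1 and 100 gave -3.49 and -2.27 for Hspa1b. The Hspa1a and Hspa1b genes are near-identical copies, so their probe sets may read each other's RNA, which was not tested.

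Hspa4l, an HSP110-type exchange factor, gave 618 and 974 on the controls and 157 in A2B1 to 348 in betaD5 (median 258). All lines lay below both controls, with a log2 difference of -1.49 (SE 0.22, limma adjusted p = 2.29e-05), and -0.95 after centring arrays on their medians. Hspa1l, the testis HSP70 beside Hspa1a in the genome, was not tested and gave 60.2 and 106.1 on the controls and 6.39 to 35.9 in the lines.

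The other heat shock genes did not go with Hspa1a and Hspa1b. Hsph1, the inducible HSP110, gave 951 and 1935 on the controls and 943 in A2B1 to 2457 in cRAF_cMYC (median 2130), so the groups overlapped. Its log2 difference was 0.49 (95% interval -0.15 to 1.14), 0.99 against control 1 and -0.0093 against control 2. Dnajb1, the main cytosolic J-domain partner of Hspa1a, gave 188 and 513 on the controls and 408 in A2C12 to 740 in betaD10 (median 524). The lines overlapped control 2, and the log2 difference of 0.75 (SE 0.26, limma adjusted p = 0.0191) was 1.40 against control 1 and 0.096 against control 2.

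Hsp90aa1, the inducible cytosolic HSP90, gave 3543 and 4849 on the controls and 5235 in betaD10 to 10452 in betaD5 (median 8078). All lines lay above both controls, at a log2 difference of 0.84 (SE 0.21, limma adjusted p = 0.00237) that was under 2-fold, and 0.26 after quantile normalization. Dnajb4 gave 0.32 and the small heat shock protein Hspb8 0.28, with adjusted p of 0.294 and 0.314. Hspb1, the best known small heat shock protein, was not tested: its only probe set gave 21.0 and 5.24 on the controls and 2.67 to 14.5 in the lines.

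Immediate early genes, which tissue digestion is known to raise, moved beside the inducible HSP70 genes. Of 12 on that list 8 fell and 1 rose, beside the 21.4% and 16.5% of all tested probe sets, with a median log2 difference of -1.84. Their summed signal was 17014 and 23809 on the controls and 3329 to 14666 on tumour arrays, and Fos gave 3264 and 5158 on the controls and 70.8 to 776 in the lines. The part of isolation in the Hspa1a and Hspa1b values was not tested.

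**Figure D3:**
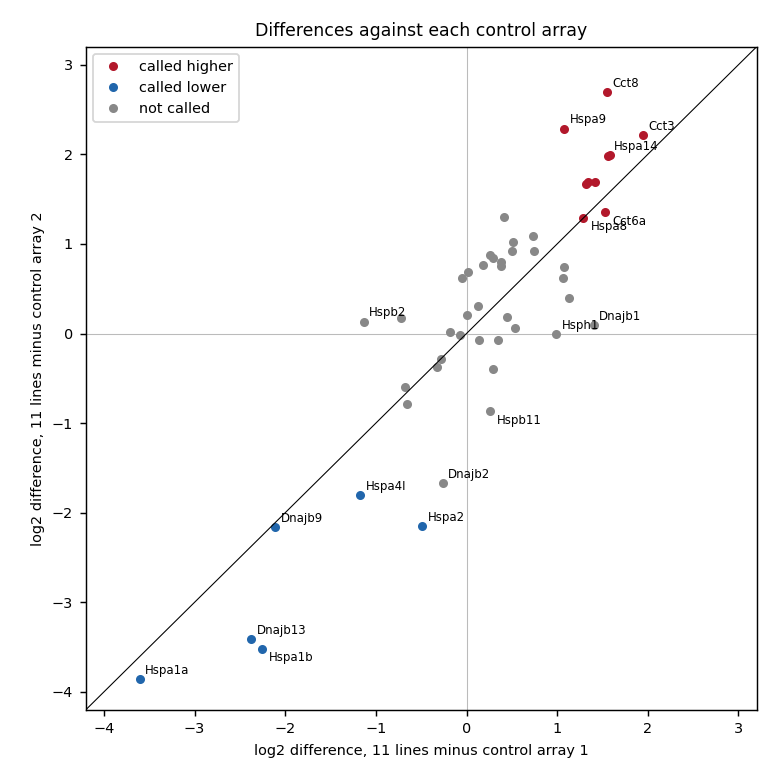
Log2 difference of each tested member between the 11 lines and control array 1 (horizontal axis) and control array 2 (vertical axis); the diagonal marks equal values. Hspa1a (-3.61 and -3.86) and Hspa8 (1.29 and 1.29) lie near the diagonal, and Hspa2 (-0.49 and -2.15), Dnajb1 (1.40 and 0.096) and Hspa9 (1.08 and 2.29) lie far from it.

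Outside these classes 16 cytosolic or nuclear members were tested, with a median of 0.39; 2 of them rose (12.5%, near the 16.5% of all tested probe sets) and none fell. Hspa8, the constitutive HSP70, gave 2519 and 2509 on the controls and 5796 in B3 to 6950 in gammaD12 (median 6151). The controls were alike and the lines formed a narrow band above them, with a log2 difference of 1.29 (SE 0.12, limma adjusted p = 3.75e-07); quantile normalization gave 0.93, under 2-fold. Hspa14, a ribosome-associated HSP70, gave 160 and 111 on the controls and 390 in A2C12 to 744 in betaD5 (median 557), a log2 difference of 1.77 (SE 0.21, limma adjusted p = 3.41e-06) with no overlap. Dnajc2, the J-domain partner of Hspa14 on the ribosome, gave 0.77 (SE 0.23, limma adjusted p = 0.00945) with 10 lines above both controls, and a second Dnajc2 probe set rose by 1.27 (SE 0.20).

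Further members of this class passed the adjusted p but not the fold. Dnajc8, a splicing-associated protein, and Dnajc9, a histone chaperone partner, both gave 0.91 (SE 0.15 and 0.26), with all 11 lines above both controls. A second Dnajc8 probe set gave -0.31 (SE 0.22), and the mean of the Dnajc8 probe sets gave 0.30. Hspbp1, an exchange factor that counteracts HSP70, gave -0.72 (SE 0.23) with all lines below both controls. Dnajb2, which is abundant in neurons, gave -0.97 (SE 0.30), but -1.67 against control 2 and -0.26 against control 1. Hspa4, an exchange factor, gave 0.57 (SE 0.21) by its brightest probe set, while 3 of its 4 other probe sets rose, by 1.29, 1.05 and 1.31. The brightest Hspa4 probe set gave 0.84 against control 2 alone and 0.29 against control 1 alone. The class also holds genes with values near 0, such as Dnaja1 at -0.054 (95% interval -0.45 to 0.34), the synaptic vesicle protein Dnajc5 at -0.048 and Dnajc7 at 0.14.

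Of the 3 tested tissue-restricted members 2 fell, a class too small to read against the 21.4% of all tested probe sets. Dnajb13, a protein of the radial spokes of cilia and sperm tails, gave 502 and 1062 on the controls and 51.8 in A2C12 to 106.0 in betaD5 (median 64.2), a log2 difference of -2.89 (SE 0.23, limma adjusted p = 6.50e-08); offsets of 1 and 100 gave -3.36 and -2.28. Among the 4 club and ciliated cell markers, Scgb1a1 and Cyp2f2 passed the filter through the control arrays alone, so their direction was fixed. Foxj1, a ciliated cell factor, gave 503 and 1496 on the controls, with a log2 difference of -3.17 (SE 0.29). Rsph1 gave -1.74 (SE 0.19). The 4 markers summed to 7390 and 19892 on the controls and 262 to 598 on tumour arrays. The part of ciliated cells in the Dnajb13 value was not tested. Hspa2, the HSP70 of male germ cells, gave 73.7 and 303 on the controls and 23.5 to 73.2 in the lines (median 44.7). Its log2 difference of -1.32 (SE 0.31, limma adjusted p = 0.00145) was -0.49 without control 2 and -0.88 with an offset of 100, and the call was lost in both. Hspb2, a small heat shock protein of muscle, gave -0.50, with -1.13 against control 1 and 0.13 against control 2. The unassigned members Dnajc4 and Hspb11 gave 0.034 and -0.31.

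The lines were next compared with control one by one, in a limma fit to all 24 arrays. That fit takes the spread of a line with a single array to be that of the rest. A2C12 had the most calls, 17 members higher and 7 lower, with 18.1% and 22.5% of all tested probe sets called. A2B1 had the fewest, 10 higher and 6 lower, with 13.6% and 17.7%. B3 had 13 higher and 6 lower (17.4% and 22.4%), betaD5 14 and 7 (16.8% and 21.8%), and gammaD12 13 and 7 (15.6% and 18.9%). With 12 higher and 6 lower came betaD10 (15.7% and 19.0%), cRAF_cMYC (16.9% and 21.2%), gammaA3 (16.6% and 21.7%) and gammaA7 (16.7% and 20.9%). With 12 higher and 7 lower came gammaB8 (16.9% and 20.7%) and gammaD1 (16.2% and 21.5%). Cct3, Cct4, Cct5, Cct7, Cct8, Hspa9, Hspe1, Hspa8 and Hspa14 were higher in all 11 lines, and Cct6a in 10, the exception being A2B1 at 0.98. Hspa1b, Hspa4l, Dnajb9 and Dnajb13 were lower in all 11, as was Hspa1a, whose direction the filter fixed. All 11 comparisons used the same control arrays, so an odd control level moves every line together. Agreement across the lines is therefore not 11 separate results. The share of all tested probe sets called in all 11 lines is not given, so these members have no background here.

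The chaperonin median per line ran from 1.28 in A2B1 to 1.73 in A2C12, with an SD of 0.15 over the 11 lines. The mitochondrial median ran from 0.13 in A2B1 to 1.18 in A2C12 (SD 0.31), and the endoplasmic median from -0.11 in gammaD1 to 0.72 in gammaA7 (SD 0.29). The inducible median ran from -0.097 in A2B1 to 0.49 in cRAF_cMYC (SD 0.22). Among members called in some lines, Dnajb11 was higher in 4 lines, as was Hsp90b1, and Dnajb1 was higher in 3 lines and Hsp90aa1 in 2. The share of all tested probe sets called in as many lines is not given, so these counts have no background either. The 2 arrays of A2B1 lay apart for several members: Hsph1 gave 618 and 1267 on them, Cct3 1390 and 3044, and Dnajb9 194 and 74.1.

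**Figure D4:**
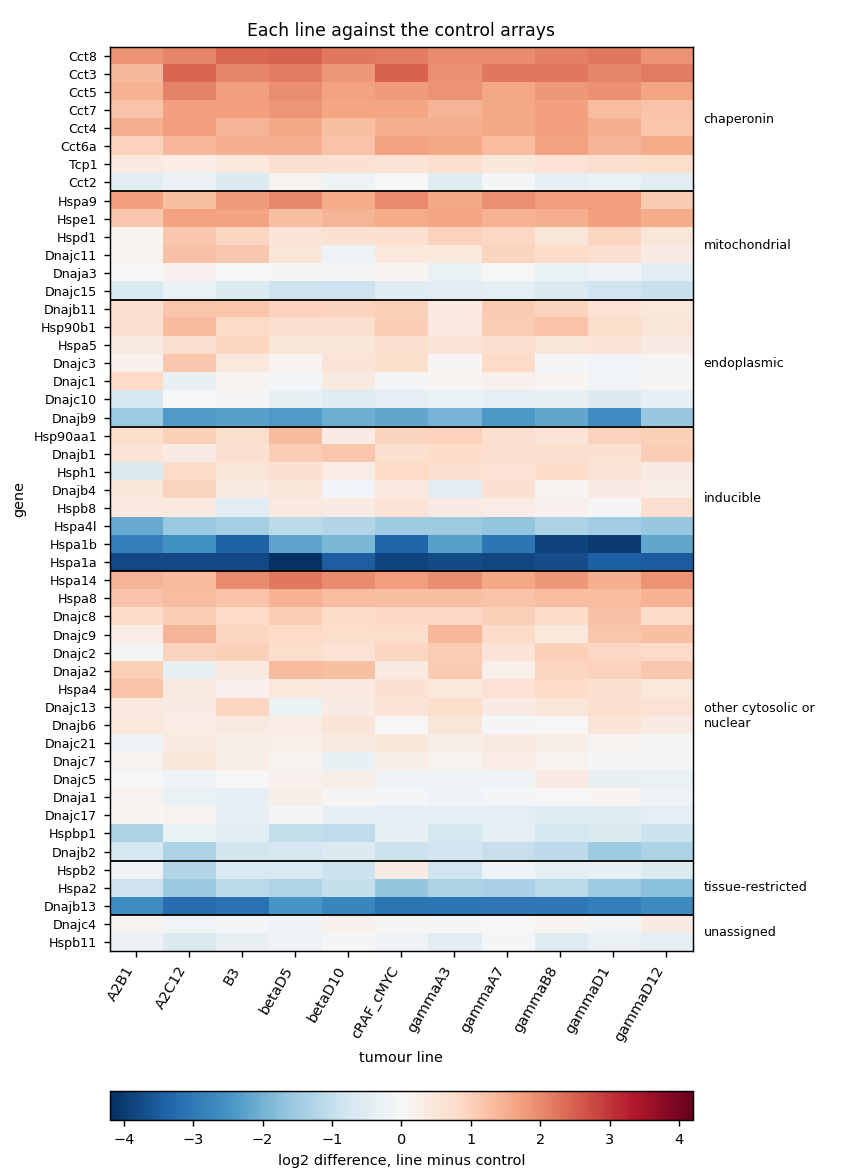
Each cell is the log2 difference of a member between 1 tumour line (columns) and the 2 control arrays, red for higher and blue for lower, with members grouped by class. The rows of the called chaperonin genes are red and those of Hspa1a, Hspa1b, Dnajb9 and Dnajb13 blue in all 11 lines, and A2B1 has the lowest chaperonin median, 1.28.

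Whether a member differed among the lines was asked with limma's moderated F-test over the 11 lines. It called 3.42% of all tested probe sets and none of the 50 members; 10 members had an unadjusted p under 0.05. In simulated data the test found 32% of 2-fold and 87% of 4-fold changes confined to 1 line of 3 arrays. A member without a call may therefore still differ among lines. The smallest adjusted p were 0.111 for Hspd1 and 0.113 for Dnaja2, a cytosolic J-domain protein with signals of 234 in A2C12 to 793 in betaD5. They were 0.152 for Dnajc9, with 812 in A2B1 to 1701 in A2C12, and 0.157 for Dnajb4, with 83.3 in gammaA3 to 268 in A2C12. For Hsp90b1 it was 0.163, and for Hspbp1, with 106 in A2B1 to 253 in A2C12, it was 0.179. Dnaja2 also differed by 0.54 between unnumbered and numbered arrays within lines, and betaD5 has an unnumbered array alone. Line and array kind therefore cannot be told apart in the range given for Dnaja2. Without the unnumbered A2B1 array 4 of the 50 members passed (Cct3, Dnajb9, Dnajc2 and Dnajc9), where 10.3% of all tested probe sets then did. Without the unnumbered B3 array 1 passed (Dnaja2), where 4.42% did, and in the 6 lines with repeat arrays alone 1 (Hspd1), where 10.4% did.

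Titles number some arrays of a line and leave 1 without a number, and in 6 lines, with 17 arrays, both kinds could be set against each other. The 5 lines with 1 array have an unnumbered array alone. Line and array kind cannot be told apart in them. No member differed by 2-fold, where 0.404% of all tested probe sets were higher and 0.261% lower on unnumbered arrays. At an adjusted p under 0.05 alone 4 members differed: Dnaja2 by 0.54, Dnajc9 by 0.39, Hspbp1 by -0.36 and Hspa9 by -0.32 (limma, unnumbered minus numbered), where 4.67% of all tested probe sets were higher and 8.64% lower; 11 had an unadjusted p under 0.05. That count of 4 was 0 without B3 or without gammaB8, 1 without cRAF_cMYC or without gammaA7, 3 without A2C12 and 6 without A2B1. The largest difference was 0.64 for Hspa1b (SE 0.22, limma adjusted p = 0.0637), and Dnajc3 gave 0.44 (adjusted p = 0.0672). Immediate early genes were higher on unnumbered arrays in the same fit: of the 12, 6 passed the adjusted p, all higher, among them Fos at 1.65 (adjusted p = 0.0426), Dusp1 at 1.47 (adjusted p = 0.00128), Ier3 at 1.18 (adjusted p = 0.000728) and Nr4a1 at 1.17 (adjusted p = 0.00492). Their summed signal was 6680 to 14666 on unnumbered and 3329 to 10394 on numbered arrays, and its part in the Hspa1b difference was not tested. The fit of unnumbered arrays against control covers all 11 lines, and that of numbered arrays covers 6 lines. These fits thus differ in lines as well as in array kind. In that order the differences against control were -2.67 and -3.40 for Hspa1b, 1.57 and 1.84 for Hspa9, and 0.95 and 0.21 for Dnaja2. The sources used here do not say what the numbering stands for.

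The helpers of the chaperones were listed by the machine they serve, and their counts are read beside the same 16.5% and 21.4% of all tested probe sets. Of 6 tested HSP70 partners 4 rose (median 1.18), among them St13, which links HSP70 to HSP90, by 1.57 (SE 0.23) and the exchange factor Bag2 by 1.36 (SE 0.19). Of 9 HSP90 partners 5 rose and none fell (median 1.01), with Sugt1 at 1.38 (SE 0.16) and the kinase adaptor Cdc37 at 1.35 (SE 0.21). Of 5 prefoldin and chaperonin partners, which pass new proteins to the ring, 1 rose: Pfdn6 by 1.17 (SE 0.17; median of the list 0.79).

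Of 6 mitochondrial partners 3 rose (median 1.04), the protease subunit Clpp by 1.97 (SE 0.18) and Grpel1, the exchange factor of Hspa9, by 1.66 (SE 0.18). Of 11 endoplasmic partners 3 rose and 2 fell (median 0.59): the collagen chaperone Serpinh1 rose by 2.07 (SE 0.21), and the lectin chaperone Canx fell by 1.73 (SE 0.21). Of 10 regulators and targets of the endoplasmic stress response 1 rose and 2 fell (median -0.47). The stress factor Xbp1 fell from 1303 and 1507 on the controls to 168 to 853 in the lines, a log2 difference of -1.49 (SE 0.36), and Herpud1, a degradation factor, fell by 1.42 (SE 0.25). The heat shock factors Hsf2 and Hsf4 were not tested, at signals of 2.33 to 25.4 in the lines. Hsf1 has no row with a single symbol and is not analysed here. Hsbp1, which binds heat shock factor, gave 0.33 (limma adjusted p = 0.345). The small heat shock protein Cryab gave 0.96 (SE 0.33, limma adjusted p = 0.0179), under 2-fold.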

How the data were processed

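Each of the 24 arrays gives 1 intensity signal per probe set for 12488 probe sets. The deposited intensity values are linear and were made with GCOS per the submitters' processing notes, which name no version; the sources used here do not give background correction or filters. Trimmed mean signals, without 2% of probe sets at each end, were 248 to 249 on every array. Affymetrix's own 66 control probe sets were removed. The number of arrays limits the precision. Fits used limma 3.58.1 in R 4.3.3 on log2(signal + 32) over all 7670 tested probe sets: 11 line means (arrays of a line averaged) against 2 control arrays with 11 residual degrees of freedom, 12 group means over 24 arrays with 12, and unnumbered against numbered arrays within 6 lines. The first fit assumes 1 spread and takes it mostly from the lines, so SE and p overstate the precision where the controls lie apart. Scripts were tested on simulated data. The members, classes, lists and naming rule were chosen with earlier results of these data known. Every member may be named, and partner genes were named by the largest called difference, up to 2 per list. Alternatives were other scalings, offsets, filters, variance models, thresholds, probe set rules, subsets of arrays, and leaving out each array or line. Same-numbered arrays of different lines were checked for shared deviations. Correlations were 0.061 to 0.67 for number 1 (median 0.16, 6 of 10 pairs above 0.1). For number 2 they were 0.059 to 0.70 (median 0.12, 8 of 10 above 0.1). Unnumbered arrays gave 0.17 to 0.54 (median 0.26, 10 of 10 above 0.1). Arrays of each kind thus share deviations. The main fits did not use the numbers, and a block for them was an alternative. Unnumbered arrays were set against numbered arrays in the fit of their own.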

Additional observations from a re-analysis of the deposited data

How the results depend on the processing

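Of the 16 calls against control, 12 held in every alternative that tested them (42, or 41 for Hspa1a, whose direction the filter fixed). Cct3 lost its call with the mean of its probe sets, Hspa8 after quantile normalization, Hspa4l after centring, and Hspa2 after quantile normalization, centring, an offset of 100 or leaving out control 2; of 34 uncalled members 17 were called at least once, 8 of them after centring alone. Calls were 16, 29 after centring, 30 at adjusted p alone and 27 at 1.5-fold. In that order, calls higher were 10, 25, 21 and 18 of the 50 tested members. Of the 7670 tested probe sets 1265, 2421, 2303 and 2034 were then higher. Calls lower were 6, 4, 9 and 9 members, beside 1638, 923, 2644 and 2381 probe sets. Member counts in these settings are to be read beside those of all tested probe sets, which also move. After centring, mitochondrial, endoplasmic and inducible members called higher were 4, 3 and 3, class medians were 2.06 (chaperonin), 1.18, 0.89 and 0.83, and calls were 30 in cRAF_cMYC, 28 in gammaA3 and 29 in gammaA7. At adjusted p alone, 1 mitochondrial member was lower, 3 endoplasmic and 2 inducible were higher; at 1.5-fold, 1, 2 and 2. Endoplasmic members called higher were 1 after quantile normalization and 2 with numbered arrays alone. With the mean of a gene's probe sets the mitochondrial median was 0.33. Leaving out 1 array or line gave 0 to 1 endoplasmic and 0 to 2 inducible members higher, medians of 1.47 to 1.68 (chaperonin), 0.014 to 0.69 (endoplasmic) and 0.043 to 0.33 (inducible), and 0 to 4 members in the F-test; the 6 lines with repeat arrays gave 1. With the replicate block the F-test called 0 members and 317 probe sets, against 262, and calls per line were 17 to 26, against 16 to 24. Signs of 13 uncalled members turned: after centring Cct2 (0.26), Dnaja1 (0.48), Dnaja3 (0.45), Dnajc10 (0.18), Dnajc17 (0.25), Dnajc5 (0.49), Hspb11 (0.23) and Hspb2 (0.034); after quantile normalization Dnajc17 (0.15) and Dnajc5 (0.20); with numbered arrays alone Dnaja3 (0.064) and Dnajc5 (0.044); with mean probe sets Dnajc3 (-0.11). Between leaving out one control and the other, values ran from -0.73 to 0.17 for Cct2, -0.40 to 0.29 for Dnaja1, -0.18 to 0.016 for Dnaja3, -0.074 to 0.14 for Dnajc4, -0.074 to 0.35 for Dnajc7, -0.87 to 0.26 for Hspb11, -1.13 to 0.13 for Hspb2, -0.054 to 0.61 for Hspb8 and -0.0093 to 0.99 for Hsph1. The cause was not tested. Signals near the offset of 32, as for Hspa1a in the lines, carry little order.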
